A study of Homo sapiens with 8 samples.

Results

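The integrin subunits ITGAL, ITGA2, ITGA3, ITGA5, ITGA6, ITGAV, ITGB1, ITGB3, ITGB4 and ITGB6 were followed across 4 treatment groups of A549 cells, a human lung adenocarcinoma (LUAD) line of epithelial origin. These 10 genes were chosen by name from 60664 genes in the count table, and 8 of them had counts. RNA was sequenced from 2 libraries each of untreated cells, cells given AX-0085 alone, cells given IFN-γ alone, and cells given IFN-γ followed by AX-0085, a kinase inhibitor described as acting on IFN-γ signaling. All groups were the same line, and the labels name no genetic change. IFN-γ was given as 20 ng (the labels name no volume), AX-0085 was brought to 0.5 uM after 24 h, and every group was harvested after another 24 h. The addition of AX-0085 to cells already exposed to IFN-γ asked how far an established IFN-γ pattern was altered.

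Integrins are cell surface receptors made of an α and a β subunit that couple the extracellular matrix, or ligands on other cells, to the actin or keratin cytoskeleton. The β subunit largely sets the intracellular link, while the α subunit has a major part in ligand choice. ITGB1 is the shared partner of many α subunits, among them ITGA2 (collagen), ITGA3 and ITGA6 (laminins) and ITGA5 (fibronectin). ITGB4 pairs with ITGA6 in hemidesmosomes, which anchor epithelial cells to laminin. ITGAV pairs with several β subunits, and with ITGB6 it forms an epithelial receptor known for activating latent TGF-β. ITGAL pairs with ITGB2 in the leukocyte receptor LFA-1, which binds ICAM-1.

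Total counts lay between 20672828 and 29978251 per library, so that 3 counts corresponded to 0.100 to 0.145 CPM (counts relative to the library total). The 2 libraries of a group differed by more than counting noise, the chi-square over its degrees of freedom being 8.55 to 27.7. Nothing in the labels says that they came from separate cultures, and p-values then measure only the spread between these libraries, which may be technical. Epithelial markers were present in all groups (6 of 6 above 3 counts), with a summed level of 8821 and 9550 CPM untreated, 6089 and 5759 under AX-0085, 7398 and 6512 under IFN-γ, and 7304 and 7221 under both. Single epithelial markers moved with the treatments. With IFN-γ 5 of 6 were called lower, against 17.2% of all genes tested, among them EPCAM (log2 change -3.18), KRT19 (-2.16) and CDH1 (-1.73). The remaining marker, KRT7, was higher (0.74) without being called. On addition of AX-0085, EPCAM, KRT19 and CDH1 were called higher, against 16.5% of all genes. KRT8 was higher (0.66) and KRT7 (-0.22) and KRT18 (-0.17) were lower there without being called. The part of these markers in the integrin changes was not tested. Of 8 leukocyte markers, PTPRC reached 1 count in a library at most and CD2, CD3E and CD52 were at 0 in all 8 libraries. Whether reads of the markers at 0 were lost in the counting was not tested. The summed level of 6 endothelial and platelet markers was at most 0.733 CPM, and that of 6 fibroblast markers at most 0.827 CPM. Mitochondrial genes took 1.71% and 1.82% of the counts with IFN-γ and 2.72% to 5.73% in the other groups. As a check on the treatments, CD274 and GBP1 were higher with IFN-γ and lower once AX-0085 was added, and both passed the test and the fold threshold described with the first comparison.

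ITGB1 and ITGA3 were the most abundant members. Levels between genes were compared as CPM per kilobase of exon, which counts all annotated exons of a gene and does not correct for the isoform in use. On this scale ITGB1 stood first in every group, at 174 untreated, 218 under AX-0085, 188 under IFN-γ, and 196 under both. ITGA3 stood second at 66.8, 36.8, 98.6 and 45.4 in the same order of groups. Both were apart from the remaining members, and from each other, in every library. ITGB4, ITGA2, ITGA6 and ITGAV formed a middle range in which the order moved between groups. In untreated cells ITGB4 led it at 7.20 CPM per kilobase, and ITGA6 at 4.90 and ITGA2 at 4.86 had overlapping libraries. With IFN-γ the order was ITGA2 at 11.2, ITGB4 at 5.09, ITGA6 at 3.35 and ITGAV at 2.51 CPM per kilobase, with no overlap between neighbours. With AX-0085 alone, ITGA2 at 8.41 and ITGB4 at 8.15 CPM per kilobase overlapped. ITGAV was the lowest of this range in all groups. ITGB6 (0.0863 to 0.239 CPM per kilobase) and ITGAL (0 to 0.351) closed the order, with ITGB6 above ITGAL in untreated and IFN-γ cells and below it in both groups with AX-0085.

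**Figure D1:**
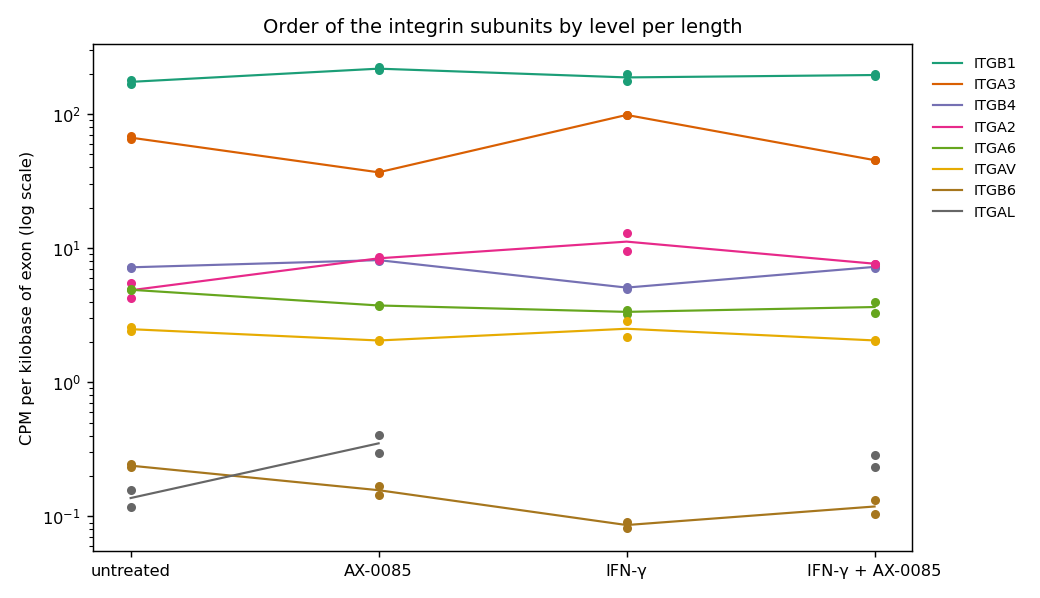
Level of 8 integrin subunits in CPM per kilobase of exon (vertical axis, log scale) in the 4 groups (horizontal axis), with a point per library and a line through the group means. ITGB1 and ITGA3 lie above all others in every group, ITGA2 passes ITGB4 with IFN-γ, and ITGAL has no point with IFN-γ because both libraries were at 0.

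Because a change in 1 abundant member alters the shares of the others, shares of the members' summed level per kilobase were also computed for each library. This sum leaves out ITGB5, a subunit outside the members. ITGB5 stood at 70.6 CPM per kilobase untreated, 54.3 under AX-0085, 29.3 under IFN-γ and 46.8 under both. The shares hold among the members only, and shares with ITGB5 included were not computed. ITGB1 took 67.8% and 65.7% of the summed level of the 8 members untreated, 77.8% and 79.2% under AX-0085, 59.9% and 61.7% under IFN-γ, and 74.7% in each library under both. ITGA3 took 24.5% and 26.8%, 13.6% and 12.9%, 33.4% and 30.6%, and 17.4% and 17.2% in the same order. The groups did not overlap for either share. The ratio of ITGA3 to ITGA2, 2 α subunits that share ITGB1, was 11.9 and 16.1 in untreated cells, 10.4 and 7.62 with IFN-γ, 4.33 and 4.43 with AX-0085, and 5.88 and 5.96 with both. It was thus lower in all 4 libraries with AX-0085 than in the 4 without. The ratio of ITGB4 to ITGA6, the hemidesmosome pair, was 1.47 in each library of untreated cells and 1.55 and 1.49 under IFN-γ, against 2.18 in both libraries with AX-0085 and 2.16 and 1.86 with both treatments. These are ratios of mRNA levels per kilobase and do not count receptors at the surface.

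Promoters from RefSeq (GRCh38.p14), each of 300 bases from 250 before to 50 after an annotated start, were available for 6 of the 10 members: ITGA2, ITGA5, ITGA6, ITGAV, ITGB1 and ITGB6. They are shown for 3 genes because their genes went in different directions with IFN-γ: ITGA2 was higher, ITGB6 was lower, and ITGB1 differed little. Capitals mark the letters GGGCGG on either strand, the core of an SP1 (GC box) site.
ITGA2, chr5:52989102-52989401, plus strand: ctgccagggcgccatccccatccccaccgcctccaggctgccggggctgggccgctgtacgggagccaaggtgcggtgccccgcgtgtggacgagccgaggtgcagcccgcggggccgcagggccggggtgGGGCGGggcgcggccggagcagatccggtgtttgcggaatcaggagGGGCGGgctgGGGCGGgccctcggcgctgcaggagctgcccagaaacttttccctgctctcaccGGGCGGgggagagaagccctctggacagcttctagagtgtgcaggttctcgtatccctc
ITGB6, chr2:160200223-160200522, minus strand: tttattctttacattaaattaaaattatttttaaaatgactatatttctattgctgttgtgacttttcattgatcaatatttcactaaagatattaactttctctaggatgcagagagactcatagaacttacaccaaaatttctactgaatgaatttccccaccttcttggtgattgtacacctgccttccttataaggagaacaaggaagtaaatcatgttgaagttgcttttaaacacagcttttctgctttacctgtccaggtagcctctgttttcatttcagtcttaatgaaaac
ITGB1, chr10:32958181-32958480, minus strand: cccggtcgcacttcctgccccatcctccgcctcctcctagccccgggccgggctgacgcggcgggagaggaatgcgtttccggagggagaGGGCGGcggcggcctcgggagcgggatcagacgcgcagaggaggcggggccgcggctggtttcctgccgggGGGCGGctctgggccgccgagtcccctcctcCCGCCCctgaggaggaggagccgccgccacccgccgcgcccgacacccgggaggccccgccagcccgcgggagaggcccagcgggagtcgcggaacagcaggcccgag

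The ITGA2 window held 4 matches with a GC content of 72.7%, and the ITGB1 window shown held 3 with 78.3%. The other ITGB1 window in the table, at chr10:32935509-32935808, held 0 with 40.7%. ITGB6 held 0 with 31.7%. Both of these GC contents lay below the lower quartile of 47% over all promoters (median 58.7%). GGGCGG was found in 45% of 35116 promoters of the same length. The interferon-response motif named GAS, searched as TTCNNNGAA, was found in 7.66% of all promoters and in 0 of the 9 windows of these members. The AP-1 motif TGANTCA was found in 7.71% of all promoters and in ITGA5 alone among the members. Both strands were read for each motif. The letters GGGCGG cannot overlap those of the other 2 motifs, while GAS and AP-1 matches can overlap each other. A match, or none, describes the letters of a 300-base window and not the binding of a factor.

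With IFN-γ the collagen receptor subunit ITGA2 rose, while the αv partner ITGB6 and the leukocyte integrin subunit ITGAL fell. A gene was called when its p from edgeR's quasi-likelihood test, adjusted by Benjamini-Hochberg over 15066 genes, was under 0.05 and its fold change exceeded 2. All 8 members with counts passed the expression filter. Of these 8, 1 rose (ITGA2), against 10.3% of all genes tested, and 2 fell (ITGAL and ITGB6), against 17.2% of all genes. The median log2 change of the 8 members was -0.24, and that of all genes tested was -0.06. ITGAL was the lowest of the 8 both as fitted and at its bound given below, so the choice between them could not move this median. In bulk RNA, fewer cells with a transcript and less of it per cell cannot be told apart.

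ITGA2, the α2 collagen receptor subunit (ENSG00000164171, GRCh38 chromosome 5, 52989340 to 53094779, plus strand), had 43.1 and 33.6 CPM untreated, 67.9 and 64.9 under AX-0085, 74.9 and 102 under IFN-γ, and 60.7 and 60.4 under both. Every treated library exceeded the untreated ones, and the IFN-γ libraries were the highest and the farthest apart. The log2 change with IFN-γ was 1.21 (SE 0.13, adjusted p = 2.567e-06). With AX-0085 alone ITGA2 was higher by 0.79 on the log2 scale (SE 0.13, adjusted p = 0.0002255), under the 2-fold threshold. In the presence of IFN-γ it was lower after addition of AX-0085, with a log2 change of -0.55 (SE 0.13, adjusted p = 0.00193), also under that threshold. The interaction, which is the AX-0085 change with IFN-γ minus that without, was -1.34 on the log2 scale (SE 0.18, adjusted p = 5.197e-05). Cells with both treatments lay above untreated cells by a log2 change of 0.65 (SE 0.13, adjusted p = 0.0008624) and did not differ detectably from cells with AX-0085 alone (log2 change -0.13, 95% interval -0.41 to 0.14).

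ITGA3, the α3 subunit of a laminin receptor (ENSG00000005884, chromosome 17, 50055968 to 50090481, plus strand), had 639 and 670.1 CPM untreated, 364 and 357 under AX-0085, 968 and 965 under IFN-γ, and 442 and 447 under both. The 4 groups did not overlap, and the libraries of a group lay close together. With IFN-γ, ITGA3 was higher by 0.56 on the log2 scale (SE 0.06, adjusted p = 1.356e-06), under the 2-fold threshold. Addition of AX-0085 to IFN-γ lowered it by a log2 change of -1.12 (SE 0.06, adjusted p = 2.409e-09), past that threshold, to a level below that of untreated cells (-0.56, SE 0.06, adjusted p = 2.839e-06). With scaling by library size alone the log2 change of ITGA3 on addition of AX-0085 was -0.998, at the edge of the fold threshold, and the call was lost. AX-0085 alone gave a log2 change of -0.86 (SE 0.06, adjusted p = 7.588e-08). The interaction was -0.26 (SE 0.08, adjusted p = 0.01662), which is small beside the AX-0085 changes with and without IFN-γ. Between the groups with AX-0085, ITGA3 was still higher with IFN-γ by 0.30 on the log2 scale (SE 0.06, adjusted p = 0.001471).

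ITGB1, the common β subunit (ENSG00000150093, chromosome 10, 32887273 to 33005792, minus strand), had 2626 and 2442 CPM untreated, 3088 and 3268 under AX-0085, 2582 and 2888 under IFN-γ, and 2816 and 2883 under both. The IFN-γ libraries overlapped the untreated ones and those with both treatments, while the AX-0085 libraries were above all others. No difference was detected with IFN-γ (log2 change 0.11, 95% interval -0.06 to 0.28) or on addition of AX-0085 to IFN-γ (0.06, interval -0.11 to 0.23). AX-0085 alone gave a log2 change of 0.33 (SE 0.08, adjusted p = 0.003448). ITGA5, its fibronectin-binding partner (ENSG00000161638, chromosome 12, 54395261 to 54419266, minus strand), was listed at 0 in all 8 libraries. The same held for ITGB3, the vitronectin receptor subunit (ENSG00000259207, chromosome 17, 47253827 to 47313743, plus strand), of whose exon bases 33.2% lie in exons of another gene. ITGA5 is known to be expressed in A549 cells, so these zeros are not read as levels, and it was not tested whether reads of the 2 genes were lost in the counting.

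Both genes of the hemidesmosome pair were lower with IFN-γ by less than 2-fold. ITGB4, the laminin receptor subunit with a long intracellular tail that binds keratin linkers (ENSG00000132470, chromosome 17, 75721328 to 75757818, plus strand), had 49.1 and 48.3 CPM untreated, 55.7 and 54.5 under AX-0085, 33.8 and 35 under IFN-γ, and 47.9 and 50.2 under both. The IFN-γ libraries were the lowest, and the libraries with both treatments spanned the untreated ones. The log2 change was -0.50 with IFN-γ (SE 0.07, adjusted p = 3.029e-05), 0.51 on addition of AX-0085 (SE 0.07, adjusted p = 2.948e-05), and 0.01 between cells with both and untreated cells (95% interval -0.14 to 0.16). All were under the 2-fold threshold. AX-0085 alone gave 0.18 (SE 0.07, adjusted p = 0.04277), and the interaction was 0.33 (SE 0.10, adjusted p = 0.01288).

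ITGA6, its α6 partner (ENSG00000091409, chromosome 2, 172427354 to 172506459, plus strand), had 33.0 and 32.5 CPM untreated, 25.2 and 24.7 under AX-0085, 21.6 and 23.2 under IFN-γ, and 22 and 26.7 under both. All 6 treated libraries were below the untreated ones, and the libraries with both treatments overlapped those of each single treatment. The log2 change was -0.54 with IFN-γ (SE 0.09, adjusted p = 0.000172) and -0.39 with AX-0085 alone (SE 0.09, adjusted p = 0.002926), both under the 2-fold threshold. No difference was detected on addition of AX-0085 to IFN-γ (0.11, 95% interval -0.10 to 0.32). The interaction was 0.50 (SE 0.13, adjusted p = 0.006913).

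**Figure D2:**
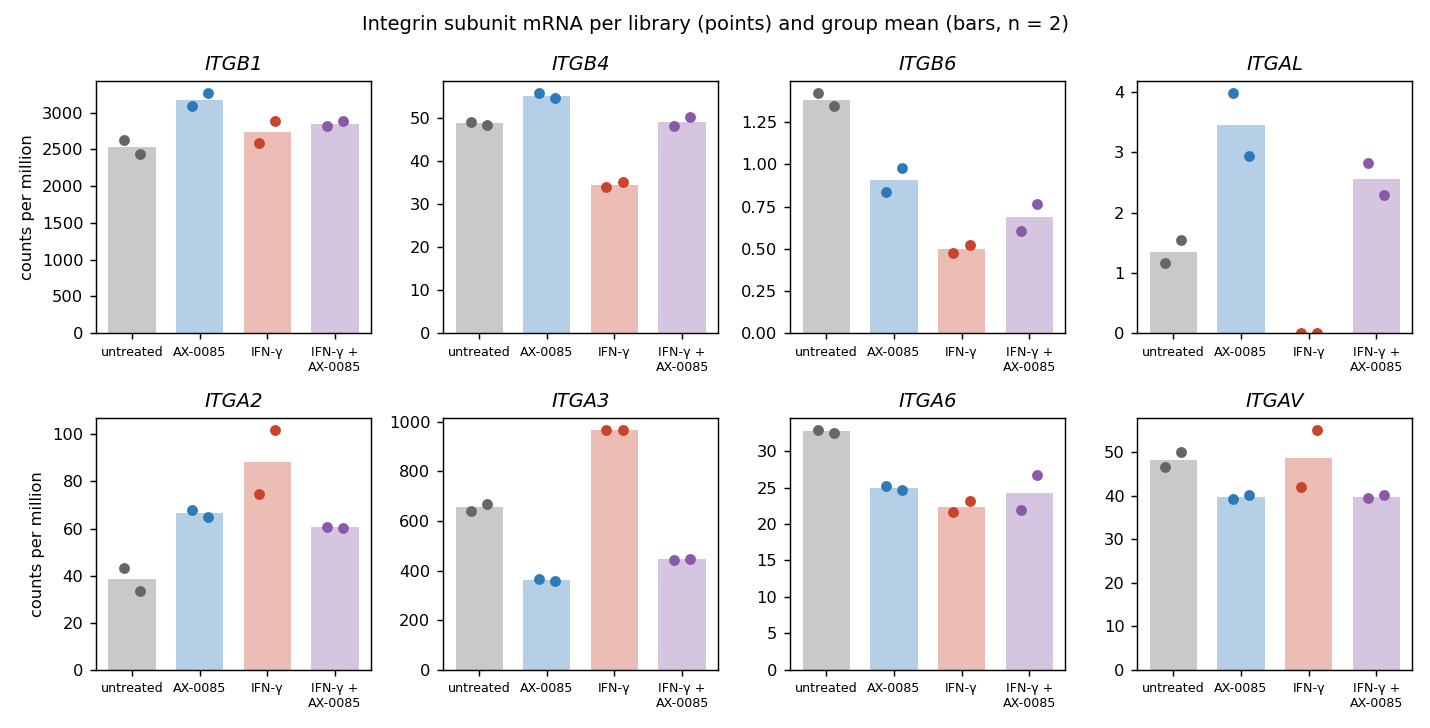
CPM of 8 integrin subunits (vertical axes, from 0, one scale per gene) in the 4 groups, with a point per library and a bar at the mean of 2 libraries. ITGA3 is highest with IFN-γ and lowest with AX-0085, ITGAL is at 0 in both IFN-γ libraries, and ITGB4 with both treatments is near its untreated level.

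Of the αv receptor subunits, ITGB6 fell with IFN-γ and ITGAV did not pass the test. ITGAV (ENSG00000138448, chromosome 2, 186590010 to 186680901, plus strand) had 46.5 and 49.9 CPM untreated, 39.3 and 40.0 under AX-0085, 41.9 and 55.1 under IFN-γ, and 39.4 and 40.0 under both. The IFN-γ libraries spanned the untreated ones, and the 4 libraries with AX-0085 were below the 4 without. No change was detected with IFN-γ (log2 change 0.02, 95% interval -0.21 to 0.24), and AX-0085 gave -0.28 without IFN-γ (SE 0.10, adjusted p = 0.0383) and -0.30 with it (SE 0.11, adjusted p = 0.02528). Both of these lay well under the 2-fold threshold, and the interaction was -0.02 (95% interval -0.34 to 0.31).

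ITGB6, the epithelial αv partner (ENSG00000115221, chromosome 2, 160099667 to 160200313, minus strand), had few counts, namely 43 and 33 untreated, 21 and 26 under AX-0085, 9 and 13 under IFN-γ, and 19 and 17 under both. These correspond to 1.42 and 1.34 CPM, 0.837 and 0.979, 0.475 and 0.523, and 0.608 and 0.764. The IFN-γ libraries were the lowest and the untreated ones the highest, with no overlap between any of the groups. The log2 change with IFN-γ was -1.46 (SE 0.31, adjusted p = 0.0009228), and cells with both treatments stayed below untreated cells (-1.03, SE 0.28, adjusted p = 0.006232). Neither the change on addition of AX-0085 to IFN-γ (0.42, 95% interval -0.34 to 1.19) nor that with AX-0085 alone (-0.61, adjusted p = 0.06826) passed the adjusted threshold. Of the exon bases of ITGB6, 16.7% lie in exons of a lncRNA gene on the same strand (ENSG00000285155), whose reads could be counted with it. The call against untreated cells with both treatments was lost in DESeq2 (adjusted p = 0.08675) and without the first untreated library (log2 change -0.95), the second IFN-γ library (-0.99) or the first library with both (-0.81).

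ITGAL, the αL subunit of LFA-1 (ENSG00000005844, chromosome 16, 30472658 to 30523567, plus strand), had 35 and 38 counts untreated, 100 and 78 under AX-0085, 0 and 0 under IFN-γ, and 88 and 51 under both. In CPM these were 1.16 and 1.55, 3.98 and 2.94, 0 and 0, and 2.81 and 2.29. The IFN-γ group had no count at all, and every library with AX-0085 exceeded the untreated ones. Set against 3 counts per library (0.140 CPM after scaling), the IFN-γ level of ITGAL was at least 9.7-fold lower than the untreated one (adjusted p = 8.233e-06). On addition of AX-0085 to IFN-γ, ITGAL was at least 18.3-fold higher than with IFN-γ alone (adjusted p = 7.037e-07). AX-0085 alone raised it by 1.36 on the log2 scale (SE 0.24, adjusted p = 0.000477), and the interaction passed the test (adjusted p = 9.565e-05). Cells with both treatments had a log2 change of 0.95 against untreated cells (SE 0.25, adjusted p = 0.006617), just under the 2-fold threshold, and of -0.42 against AX-0085 alone (95% interval -0.89 to 0.05). This value of 0.95 lay past that threshold without the second untreated library (1.15) or the second library with both treatments (1.07).

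The summed level of the 8 leukocyte markers was, like ITGAL, highest under AX-0085 and at 0 under IFN-γ. It was 0.0662 and 0.0815 CPM untreated, 0.199 and 0.188 under AX-0085, 0 and 0 under IFN-γ, and 0.0959 and 0.0450 under both. With both treatments the sum spanned the untreated libraries, while ITGAL lay above them. The sum came from a few counts of PTPRC, LYZ and TYROBP, and it was below the level of ITGAL in every library that had ITGAL counts. LYZ had 4 and 3 counts and TYROBP 1 and 2 in the AX-0085 libraries, where ITGAL was highest, PTPRC was at 0 there, and none of the 3 had a count with IFN-γ. The part of such cells in the ITGAL values was not tested. ITGAL also stands in the study's own list of cell-substrate adhesion genes, which was chosen on these same samples and is not independent evidence of its direction. Exons of antisense lncRNA genes hold 6.28% of the ITGAL exon bases.

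**Figure D3:**
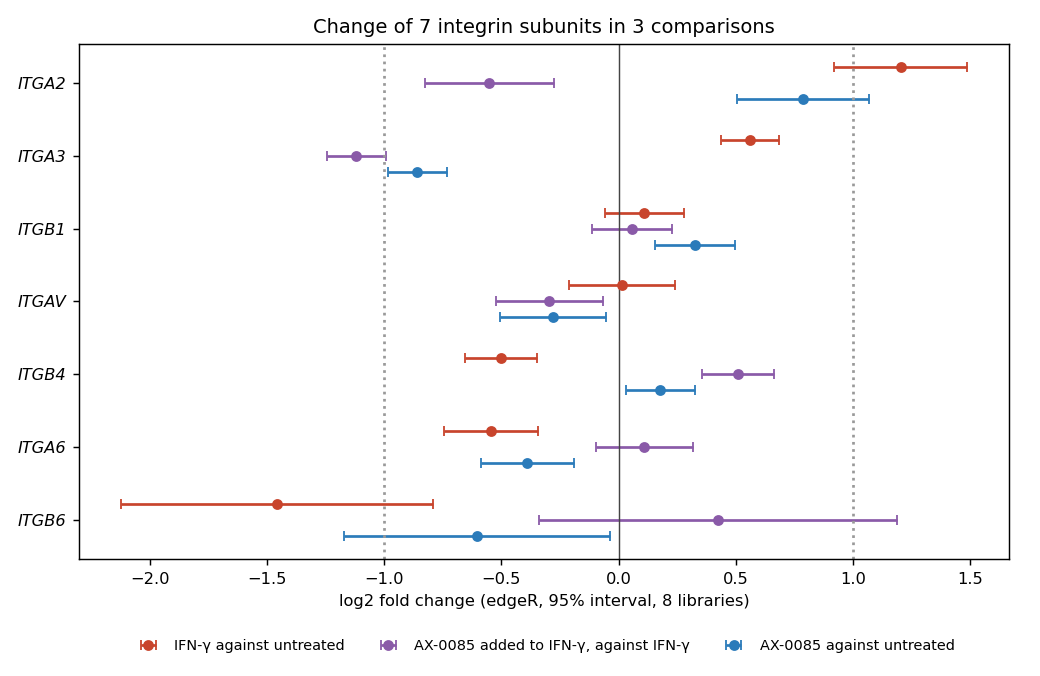
Log2 fold change of 7 integrin subunits (rows) in IFN-γ against untreated (red), addition of AX-0085 to IFN-γ (purple, against IFN-γ alone) and AX-0085 against untreated (blue), with 95% intervals from edgeR over 8 libraries and dotted lines at a 2-fold change. ITGAL is left out because its IFN-γ libraries were at 0. ITGA2 and ITGB6 lie past a dotted line with IFN-γ, and ITGA3 does so on addition of AX-0085.

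Counted over the members, addition of AX-0085 to IFN-γ raised 1 of the 8 tested members (ITGAL), against 16.5% of all genes, and lowered 1 (ITGA3), against 8.28%. The members' median log2 change was 0.08 beside 0.03 for all genes. The bound of ITGAL could not move it, since ITGAL was the highest member either way. AX-0085 alone raised 1 member (ITGAL), against 6.41% of all genes, and none was called lower (0 in edgeR and in DESeq2), against 5.62%. In edgeR 4 members were lower at an unadjusted p under 0.05 and 3 of them (ITGA3, ITGA6 and ITGAV) at an adjusted p under 0.05. Of the 15066 genes tested, 4368 were lower at the unadjusted and 4010 at the adjusted p. The median was -0.05 for the members and 0.01 for all genes. Between cells with both treatments and untreated cells, 0 members were called higher in edgeR and in DESeq2, against 7.51% of all genes, and 1 was called lower in edgeR (ITGB6), against 7.23%. In edgeR 2 members (ITGAL and ITGA2) were higher at an adjusted, and also at an unadjusted, p under 0.05 without reaching the fold threshold. At that adjusted p 4234 of the 15066 genes tested were higher. The medians in this comparison were -0.13 for the members and 0.01 for all genes.

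With AX-0085 present in both groups, 0 members were called in either direction in edgeR and in DESeq2, where 1.79% of all genes were called higher and 1.73% lower. ITGA3 passed the adjusted p in edgeR and missed only the fold threshold, as given with its levels. At an unadjusted p under 0.05 there was 1 member higher (ITGA3) and 1 lower (ITGB4, log2 change -0.17, adjusted p = 0.07472). Of the 15066 genes tested, 3332 were higher and 3362 lower at that unadjusted p. The median was -0.15 for the members and -0.01 for all genes. The remaining members had log2 changes between -0.43 for ITGB6 (95% interval -1.08 to 0.23) and 0.00 for ITGAV (interval -0.23 to 0.23). In the interaction, 1 member was higher (ITGAL, 12.1% of all genes) and 1 was lower (ITGA2, 6.46% of all genes). The median interaction was 0.16 for the members and 0.05 for all genes. Here too the bound of ITGAL could not move the members' median. These comparisons share libraries, and their values are not independent of each other.

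Of the 16 integrin subunits outside the 10 followed here, all had counts and 13 were tested. With IFN-γ 1 rose (ITGA1, a collagen receptor subunit, log2 change 1.25) and 8 fell, with a median log2 change of -1.42, against 10.3% higher, 17.2% lower and a median of -0.06 over all genes. DESeq2 called 1 higher and 7 lower. The 8 were ITGA2B (-4.08), ITGB8 (-3.93), ITGA11 (-2.41), ITGA7 (-2.23), ITGA10 (-1.58), ITGAX (-1.47), ITGA4 (-1.42) and ITGB5 (-1.27). With IFN-γ, ITGA2B had 9 and 0 counts, ITGB8 1 and 1, ITGA10 2 and 7, and ITGAX 4 and 8. ITGA7 had 9 and 8 and ITGA4 4 and 17. These genes passed the expression filter through other groups, so they entered the test mainly as candidates for a fall. The count of 8 and the median are set against all genes with that limit. Among the 8, ITGB5, another αv partner, was the only abundant one. It had 453 and 467 CPM untreated, 371 and 337 under AX-0085, 196 and 186 under IFN-γ, and 306 and 304 under both. Its groups did not overlap, its log2 change was -1.27 with IFN-γ (SE 0.06, adjusted p = 1.12e-09), and it came back in part on addition of AX-0085 (0.67, SE 0.06, adjusted p = 5.912e-07). ITGB2, the LFA-1 partner of ITGAL, had 4.33 and 3.42 CPM untreated, 8.21 and 7.26 under AX-0085, 1.95 and 1.97 under IFN-γ, and 8.09 and 6.92 under both. Like ITGAL, it was lowest with IFN-γ and highest in the groups with AX-0085, though it was not at 0 in any library. Its log2 change was -0.99 with IFN-γ (SE 0.19, adjusted p = 0.0004833), just under the 2-fold threshold, and 1.94 on addition of AX-0085 (SE 0.18, adjusted p = 5.311e-07).

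Addition of AX-0085 to IFN-γ raised 7 of the 13 other subunits, led by ITGA7 (3.25), ITGA2B (2.96) and ITGA11 (2.30), against 16.5% of all genes. The median log2 change was 1.19, against 0.03 over all genes. Of the 7, ITGA7, ITGA2B, ITGA10, ITGAX and ITGAD (8 and 5 counts) had few counts with IFN-γ. They passed the expression filter through other groups, which favours a rise from IFN-γ. The comparison with all genes has that limit. DESeq2 called 5 higher. None was called lower (0 in edgeR and in DESeq2), against 8.28% of all genes in edgeR. At an adjusted, and also at an unadjusted, p under 0.05, 2 were lower. Of the 15066 genes tested, 4940 were lower at that adjusted p. AX-0085 alone raised 2 (ITGAX and ITGA7) and lowered 1 (ITGA2B), with a median of -0.14, against 6.41% and 5.62% of all genes. DESeq2 called 2 higher and 0 lower, so that the call of ITGA2B was lost. With both treatments against AX-0085 alone, ITGB8 was lower (-2.67, SE 0.56, adjusted p = 0.002727). ITGB8 and ITGA2B rested on few reads with IFN-γ, with 0.0528 and 0.0402 CPM for ITGB8 and 0.475 and 0 for ITGA2B, so that their fitted changes depend on the prior count. The changes of ITGA10, ITGAX, ITGA7, ITGA4 and ITGAD also rested on few reads with IFN-γ. ITGAD, ITGAE and ITGAM did not pass the test with IFN-γ. ITGA2B, ITGA11 and ITGB5 are also in the study's own adhesion list, which was chosen on these samples.

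**Figure D4:**
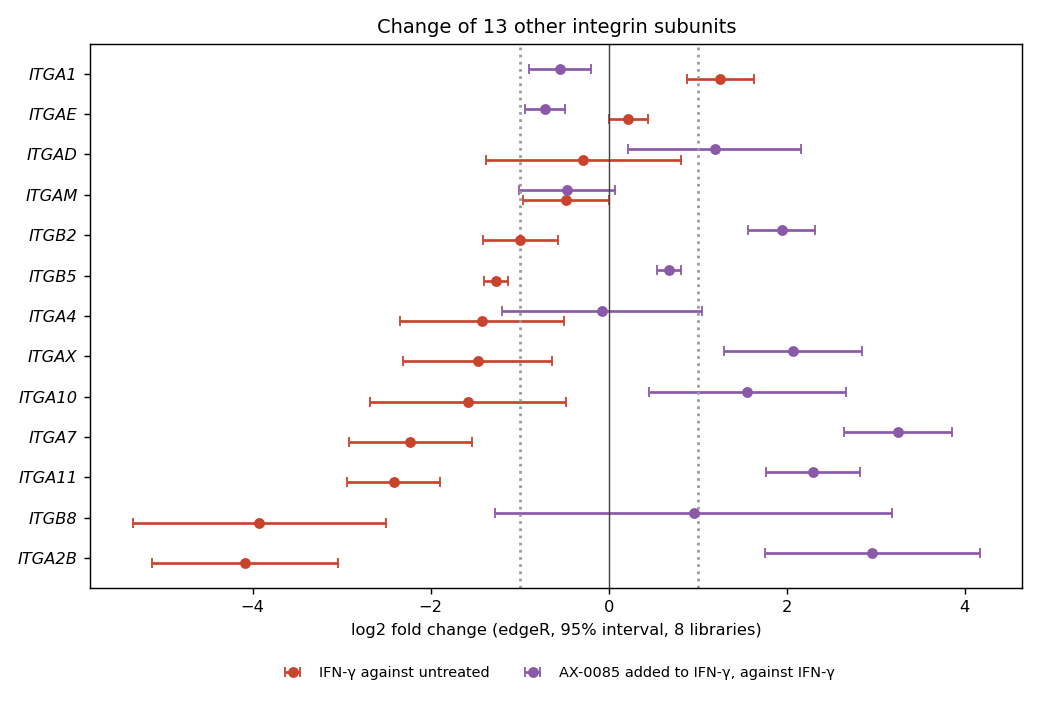
Log2 fold change of 13 other integrin subunits (rows) in IFN-γ against untreated (red) and addition of AX-0085 to IFN-γ (purple, against IFN-γ alone), with 95% intervals from edgeR over 8 libraries and dotted lines at a 2-fold change. For 8 subunits the red point is past the left line, and for 7 the purple point is past the right one.

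Of 27 genes for integrin ligands, 20 were tested, and 5 rose and 6 fell with IFN-γ (median log2 change 0.22), against 10.3% and 17.2% of all genes. CCN1, a matricellular ligand of αv integrins, had 64.1 and 69.4 CPM untreated, 21.4 and 21.3 under AX-0085, 396 and 370 under IFN-γ, and 26.9 in each library under both. It was highest with IFN-γ and fell below untreated cells wherever AX-0085 was present. The log2 change of CCN1 with IFN-γ was 2.52 (SE 0.06). The fibrinogen chains FGB (-3.67, SE 0.21) and FGG (-2.95, SE 0.26) fell furthest among ligands whose mean log2 CPM was 2 or more. Addition of AX-0085 raised 6 and lowered 4 (median 0.26), against 16.5% and 8.28% of all genes, with FGG (2.27) and FGA (2.17) up and CCN2 (-4.88) and CCN1 (-3.83) down. AX-0085 alone raised 1, the laminin α3 chain gene LAMA3 (1.05), and lowered 3, led by CCN2 (-2.99) and CCN1 (-1.64). This stood against 6.41% and 5.62% of all genes, and the median of the ligands was 0.05.

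Of 26 adaptor and signaling genes inside the cell, all tested, 1 rose with IFN-γ (ZYX, the zyxin gene of focal adhesions, 1.60, SE 0.07) and 2 fell, led by the talin-binding KANK2 (-1.34, SE 0.08), with a median of -0.08, against 10.3% and 17.2% of all genes. Addition of AX-0085 raised 3, against 16.5% of all genes, led by KANK2 (1.98) and the talin gene TLN2 (1.27). It lowered 2, the kindlin gene FERMT2 (-1.31) and ZYX (-1.26), against 8.28% of all genes. The median was -0.02. With AX-0085 alone 0 of the 26 were called in edgeR and in DESeq2, with a median of -0.13. Of all genes, 6.41% were called higher and 5.62% lower there in edgeR. Of the 26 genes, 4 were higher and 12 lower at an adjusted p under 0.05 in edgeR, and all missed the fold threshold. The counts were the same at an unadjusted p. Over all 15066 genes tested, 4018 were higher and 4010 lower at that adjusted p. Among 8 hemidesmosome and tetraspanin genes, 2 fell with IFN-γ, among them the tetraspanin CD9 (-1.34, SE 0.07), against 17.2% of all genes. None was called higher in edgeR (0, against 10.3% of all genes), while DESeq2 called 1. In edgeR 5 were higher at an adjusted, and also at an unadjusted, p under 0.05, against 4838 of 15066 genes at the adjusted one. The median of these 8 genes was 0.27. On addition of AX-0085 0 of these 8 were called in edgeR or DESeq2, with a median of -0.13. Of all genes, 16.5% were called higher and 8.28% lower in edgeR. At an adjusted (and at an unadjusted) p under 0.05 in edgeR, 1 was higher and 3 were lower. Those numbers were 5079 and 4940 of 15066 genes at the adjusted p. With AX-0085 alone 1 was called lower and 0 were called higher with either tool, against 5.62% and 6.41% of all genes in edgeR. The median was -0.32. At an adjusted (and at an unadjusted) p under 0.05, 2 were higher and 5 lower, against 4018 and 4010 of 15066 genes at the adjusted one.

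Of 12 integrin trafficking genes, 11 were tested, and the early endosome GTPase gene RAB5A rose with IFN-γ (1.21, SE 0.07) while 3 fell (2 in DESeq2), against 10.3% and 17.2% of all genes, among them RAB11A of recycling endosomes (-1.25, SE 0.06) and the caveolin gene CAV1 (-1.07, SE 0.07). The median was 0.06. On addition of AX-0085 0 of the 11 were called in edgeR or DESeq2 (median -0.25), against 16.5% higher and 8.28% lower of all genes in edgeR. At an adjusted (and at an unadjusted) p under 0.05 in edgeR, 3 were higher and 5 lower and missed the fold threshold. Over all 15066 genes tested, 5079 were higher and 4940 lower at that adjusted p. With AX-0085 alone 0 were called with either tool (median -0.11), against 6.41% higher and 5.62% lower of all genes in edgeR. In edgeR 2 were higher and 3 lower at an adjusted p, and 2 higher and 4 lower at an unadjusted p, under 0.05. Over all 15066 genes tested, 4018 were higher and 4010 lower at the adjusted p, and 4442 and 4368 at the unadjusted one.

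For the 3 members with the widest range of group means, the genes with the most similar log2 CPM over the 8 libraries were sought among 10131 genes. ITGA3 was most like ETV5, SMTN and PPIF (Pearson's r 0.9996, 0.9993 and 0.9991). ITGB6 was most like PRPS2, BRIP1 and BRI3BP (0.9888, 0.9872 and 0.9865), and ITGAL was most like VAV3, HDAC6 and CASTOR3P (0.9979, 0.9975 and 0.9974). Between members, r was 0.974 for ITGAL with ITGB4, 0.926 for ITGA6 with ITGB6, and -0.913 for ITGA3 with ITGB4. The 8 libraries fall into 4 treatment groups, so these values mainly reflect 4 group levels, and for ITGAL they rest on the 2 libraries at 0.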

How the data were processed

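RNA was sequenced from 8 A549 libraries, 2 per group. Per the labels and the study's methods, the authors prepared stranded mRNA libraries, sequenced paired-end reads, trimmed adapters with TrimGalore 0.6.7, mapped with STAR 2.7.9a to GRCh38 and counted reads per gene with featureCounts. The deposited values are raw counts, whole numbers without normalization. The annotation release, strand setting, treatment of multi-mapping reads and whether reads or pairs were counted are not given in the sources used here, and each can move the counts of overlapping genes.

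Gene positions, exon lengths and overlaps came from GENCODE 44 (GRCh38), which paired 60463 of 60664 identifiers with a symbol. Genes kept by filterByExpr (15066) were scaled with TMM factors and tested in R 4.3.3 with edgeR 4.0.16 (quasi-likelihood, all 8 libraries in 1 model of 4 groups). Calls needed a Benjamini-Hochberg adjusted p under 0.05 and an absolute log2 change over 1. CPM are TMM-scaled, log2 CPM used a prior count of 0.125, and bounds used 3 counts per library. The alternatives were DESeq2 1.42.0, RLE size factors, library size alone, no filter beyond 1 count, at least 10 counts in every library, only the groups compared, adjusted p alone, unshared exon bases, a replicate block and leaving out each library.

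The members and gene lists were chosen with earlier results of these data known. Named were all members, other subunits with at least 10 counts in 2 libraries, up to 2 called genes per direction in each list (mean log2 CPM of at least 2) for 3 comparisons, and for the 3 members with the widest range the 3 most similar genes. A few genes named by it are left out of the text. The procedure was tested on simulated counts. Promoters were taken from RefSeq.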

Additional observations from a re-analysis of the deposited data

Results flagged for a closer look

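For 5 subunits the change with AX-0085 differed between cells with and without IFN-γ by the interaction test (edgeR's quasi-likelihood test, adjusted over all genes tested). Of the 15066 genes tested, 4025 were higher and 3552 lower in the interaction at an adjusted p under 0.05. ITGA2 was higher with AX-0085 alone and lower on its addition to IFN-γ, with an interaction of -1.34 on the log2 scale. Leaving out libraries or changing the processing moved it between -1.55 and -1.11. For ITGAL the fitted interaction was 7.68, a value that depends on the prior count because both IFN-γ libraries were at 0. The bound of 3 counts per library gives an interaction of at least 2.83. The other 3 were smaller: -0.26 for ITGA3, 0.50 for ITGA6 and 0.33 for ITGB4. Over the alternatives their adjusted p reached 0.1735, 0.05627 and 0.0713, so that each lost its adjusted threshold under at least 1 of them.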

How the results depend on the processing

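With the adjusted p alone, without the fold threshold, the members called higher and lower were 2 and 4 with IFN-γ, 2 and 3 on addition of AX-0085 to IFN-γ, 4 and 3 with AX-0085 alone, 2 and 4 with both against untreated, and 3 and 2 in the interaction, and 1 was higher with both against AX-0085. Of the 15066 genes tested, those called higher and lower this way were 4838 and 5421 with IFN-γ and 5079 and 4940 on addition of AX-0085. They were 4018 and 4010 with AX-0085 alone and 4234 and 4339 with both against untreated. They were 4025 and 3552 in the interaction and 2601 and 2627 with both against AX-0085. DESeq2 called 0 members lower with both against untreated (ITGB6 adjusted p = 0.08675). Requiring at least 10 counts in every library removed ITGAL and ITGB6 from the test by construction and left 0 lower with IFN-γ, 0 higher on addition of AX-0085, 0 higher with AX-0085 alone, 0 lower with both against untreated and 0 higher in the interaction. There ITGAV turned to -0.031 with IFN-γ, -0.0097 with both against AX-0085 and 0.022 in the interaction. Scaling by library size alone moved the median of all genes from -0.06 to -0.18 with IFN-γ and from 0.03 to 0.16 on addition of AX-0085. It left 0 members lower on that addition (ITGA3 at -0.998) and 2 higher in the interaction (ITGAL and ITGB6), and turned ITGAV to -0.10 and ITGB1 to -0.0051 with IFN-γ and ITGAV to 0.10 in the interaction. The size of these moves was close to the shift of that median.

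Leaving out each library in turn gave 0 to 1 members lower and 0 to 1 higher with both against untreated. Small values turned sign in it, with ranges of -0.20 to 0.18 for ITGAV in the interaction, -0.15 to 0.21 for ITGAV with IFN-γ, -0.010 to 0.039 for ITGAV with both against AX-0085, -0.020 to 0.084 for ITGB4 with both against untreated, -0.029 to 0.14 for ITGB1 on addition of AX-0085, -0.18 to 0.12 for ITGA6 with both against AX-0085 and -0.032 to 0.25 for ITGA6 on addition of AX-0085. None of these passed the test in the fit of all libraries, and the cause of the turns was not tested. A lone library was assumed to vary like the other groups.

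Replicate numbers are shared across groups by label only: deviations of same-numbered libraries correlated between -0.07 and 0.04. With the replicate block the members called were 1 higher and 2 lower with IFN-γ and 1 and 1 on addition of AX-0085, and no count of members changed. RLE size factors, no filter beyond 1 count, and fitting only the groups compared kept each count of members. Unshared exon bases moved 0 ranks of the level order in untreated cells, the only group in which this was checked. Depth limits ITGB6 and ITGAL, with at most 43 and 100 counts in a library.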
